A study of Mus musculus with 12 samples.

Results

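The centromere-proximal 15 Mb of the 19 mouse autosomes was described in liver tumors of Mdr2-knockout mice by array-based comparative genomic hybridization (aCGH), which measures, probe by probe along the genome, how much DNA a tumor holds relative to a reference tissue. A probe belonged to this stretch if the scanner files placed it on chromosomes 1 to 19 of the genome build mm8 with a start at or below position 15000000. This held for 3290 of the 42235 probes placed on an autosome or on chromosome X, and they filled 19 of the 172 consecutive windows of 15 Mb with at least 20 probes on the autosomes. The stretch of each chromosome is called its proximal window below, and its level is the mean log2 ratio of tumor over non-tumor liver over the probes of the window, so that 0 means an equal DNA content.

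Mouse chromosomes are acrocentric, with the centromere at 1 end, so the first positions of the sequence lie next to the centromere. The centromere itself and the repeats around it are packed as heterochromatin, carry no unique sequence and are not seen by the probes. Mdr2, now named Abcb4, exports phospholipid from hepatocytes into bile, and mice without it develop chronic bile duct inflammation and later hepatocellular carcinoma.

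All mice carried the Mdr2/KO genotype on the FVB background, controls included, and no tumor of an unmutated mouse was compared. The 6 post-PHx tumors (4 of males and 2 of females) came from 9-month-old mice after a 70% partial hepatectomy (PHx) at 3 or 6 months of age. The other 6 tumors (2 of males and 4 of females) were spontaneous tumors of untreated mice, 13 to 14 months old. Treatment and age thus changed together between the groups and cannot be told apart. Each tumor, named by its group, number and sex (PHx1M to PHx6F, Spon1M to Spon4F, Spon5F and Spon6F), was labelled in red and hybridized on 1 array with the green-labelled distant non-tumor liver of its own mouse, with no dye swap. Each tumor was a separate mouse and 1 replicate, and a level is an average over all cells of the sample, so a gain in few cells and a small gain in all cells cannot be told apart.

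The windows held 87 probes (chromosome 14) to 509 (chromosome 19). The first probe stood at position 4336501 on chromosome 1 and at 6628547 on chromosome 14, and between 3051921 and 3508254 on the other chromosomes. The noise between neighbouring probes put the standard error of a single window level between 0.0065 and 0.0284. This was well below the high levels described here, but of the size of the levels nearest 0, whose sign is not resolved. Noise shared by neighbouring probes is not part of it. Median signal over background in the windows was 7.09 to 26.7 in the green channel and 4.0 to 12.9 in the red, and in the green channel it was close to that of the other autosomal probes. In the red channel it was 6.53 against 5.93 at the other probes in PHx2F and 7.99 against 7.17 in PHx3M, the tumors with the highest proximal levels, and 12.9 against 12.1 in Spon1M. PHx1M to PHx4M shared slide 1 and Spon1M to Spon4F slide 3, and slide 2 alone held both groups (PHx5M, PHx6F, Spon5F and Spon6F). The post-PHx arrays of slide 1 had the 4 lowest green signals over background, 7.09 to 12, and the part of slide in the group differences was tested only through slide 2 and a slide term.

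High proximal windows were more frequent in post-PHx than in spontaneous tumors, and in post-PHx tumors they were far more frequent than windows of the same size elsewhere. Over the pairs of a proximal window and a post-PHx tumor, 14 (12.3%) had a level of at least 0.4, the threshold used throughout, against 2.42% of the pairs over all 172 windows of 15 Mb on the autosomes. Outside the proximal windows the share was 11 of 918 pairs (1.2%). In spontaneous tumors, 4 proximal pairs (3.51%) reached 0.4, against 1.26% over all windows and 9 of 918 pairs (0.980%) outside the proximal windows. At or below -0.4 there was no proximal window in a post-PHx tumor (0% of all windows) and 1 in a spontaneous tumor, where 1.55% of all pairs stood that low. These shares are descriptions with no test, since the windows of 1 tumor are not replicates. They also went with slide. Proximal windows at or above 0.4 averaged 3.25 per post-PHx tumor on slide 1 and 0.5 on slide 2. In spontaneous tumors they averaged 0 on slide 2 and 1 on slide 3.

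**Figure D1:**
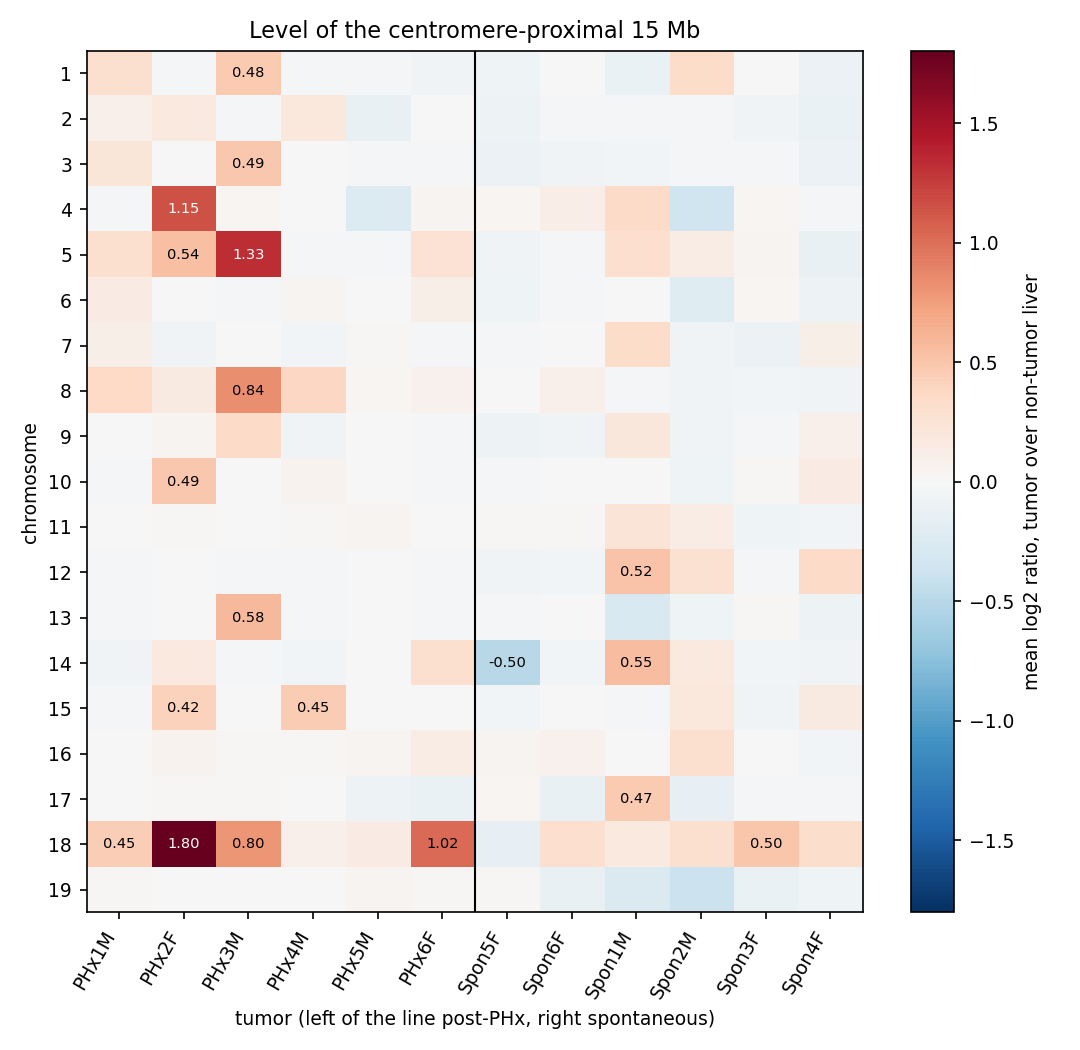
Level of the proximal 15 Mb window, as mean log2 ratio of tumor over non-tumor liver, for each chromosome (vertical axis) and tumor (horizontal axis). Levels at or beyond 0.4 in either direction are written into their cells, and 14 of the 18 high ones belong to post-PHx tumors, 4 of them on chromosome 18.

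The high windows were spread unevenly over the tumors. PHx3M had 6 (chromosomes 1, 3, 5, 8, 13 and 18), PHx2F had 5 (chromosomes 4, 5, 10, 15 and 18), PHx1M and PHx6F had 1 each, on chromosome 18, PHx4M had 1, on chromosome 15, and PHx5M had none. Among spontaneous tumors Spon1M had 3 (chromosomes 12, 14 and 17) and Spon3F had 1, on chromosome 18. Without PHx3M the post-PHx count was 8, and without Spon1M the spontaneous count was 1.

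Averaged over the 19 windows, the proximal level of the post-PHx tumors was highest in PHx2F (0.26) and PHx3M (0.25), followed by PHx1M (0.09), PHx6F (0.08), PHx4M (0.05) and PHx5M (-0.01). In spontaneous tumors it was -0.06 in Spon5F, 0.00 in Spon6F, 0.12 in Spon1M, 0.02 in Spon2M, 0.00 in Spon3F and 0.01 in Spon4F. The groups overlapped, with 2 post-PHx tumors above every spontaneous tumor and PHx5M below 5 of the 6. The mean was 0.12 ± 0.11 (SD, n = 6) in post-PHx and 0.01 ± 0.06 (SD, n = 6) in spontaneous tumors, and no test was made on this average because the windows had been chosen with results of these data known. Within slide 2 the 2 post-PHx tumors averaged 0.04 and the 2 spontaneous tumors -0.03.

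This excess was not shared by the rest of the same chromosomes. The mean level of the remaining probes was 0.00 ± 0.01 (SD, n = 6) in post-PHx and -0.01 ± 0.04 (SD, n = 6) in spontaneous tumors, which left a proximal excess of 0.12 ± 0.11 and 0.03 ± 0.06. At the other end of the chromosomes, the last 15 Mb averaged 0.01 ± 0.01 (SD, n = 6) in post-PHx tumors and -0.02 ± 0.06 (SD, n = 6) in spontaneous ones. PHx2F had a proximal excess of 0.25 over the rest of its chromosomes and PHx3M one of 0.24, while PHx5M had -0.01. The largest spontaneous excess was 0.11, in Spon1M.

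**Figure D2:**
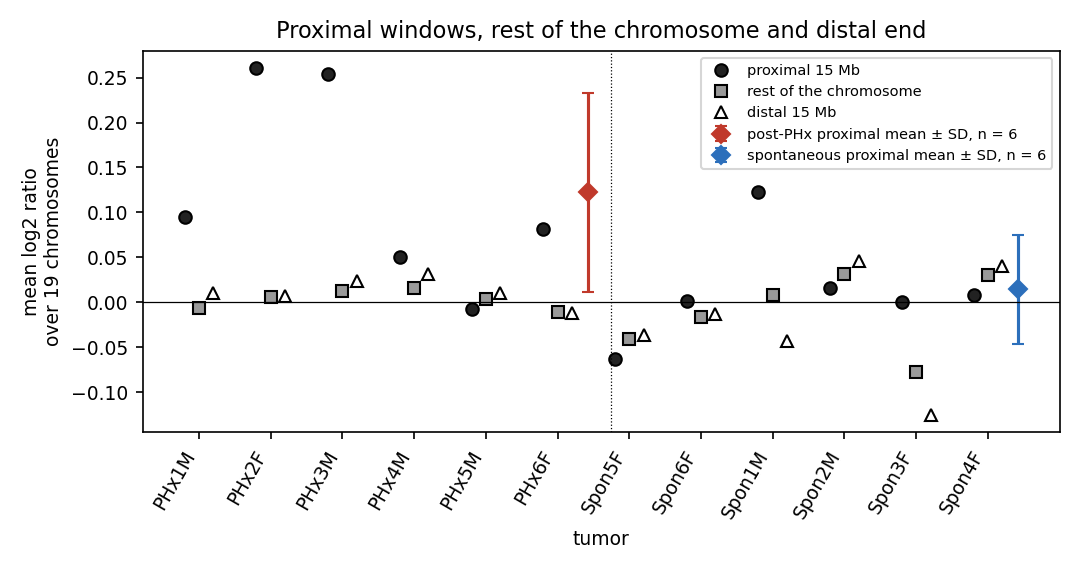
Mean log2 ratio over the 19 chromosomes for each tumor: proximal 15 Mb (black circles), rest of the chromosome (grey squares) and distal 15 Mb (white triangles). Diamonds give the group mean of the proximal level with its SD (n = 6), 0.12 in post-PHx and 0.01 in spontaneous tumors, and the rest of the chromosome and the distal end of the post-PHx tumors lie near 0.

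By the median window, the tumors of the post-PHx group also differed from each other more in proximal windows than elsewhere. The median over windows of the SD between the 6 post-PHx tumors was 0.148 for proximal windows and 0.026 for the other 153 windows. In spontaneous tumors the corresponding values were 0.121 and 0.113, so their spread was nearly as large elsewhere. A median does not show the few windows elsewhere that were high in single post-PHx tumors. PHx4M had 6 windows at or above 0.4 over the whole set, 1 of them proximal, and PHx3M had 10, of which 6 were proximal. Group means of post-PHx tumors stood above 0 in 16 of 19 proximal windows (84.2%) and in 70 of 153 others (45.8%), and those of spontaneous tumors in 13 of 19 (68.4%) and 72 of 153 (47.1%). A mean above 0 was not always shared by most tumors. On chromosomes 1, 3, 9, 13 and 14 the median of the 6 post-PHx tumors was below 0. On chromosome 13 the mean was 0.08 and the median -0.01. Ranked by the post-PHx mean among all 172 windows, the proximal windows of chromosomes 18, 5 and 8 were the first 3, and those of chromosomes 4, 15, 3, 1 and 10 stood at places 7, 9, 11, 12 and 15. The lowest proximal windows, of chromosomes 7, 12 and 17, stood at places 95, 141 and 153. By the spontaneous mean, the windows of chromosomes 18 and 12 were at places 2 and 5, and that of chromosome 19 at place 168.

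Tested window by window, no single proximal level passed. With limma over all 172 windows and Benjamini-Hochberg adjustment, 0 of 19 proximal windows were called in post-PHx tumors against 0, where 0% of all windows were called, and 3 were higher at an unadjusted p under 0.05. For spontaneous tumors against 0 the counts were also 0 of 19 (0% of all windows), with 1 higher and 1 lower at an unadjusted p under 0.05, and for post-PHx minus spontaneous 0 of 19 (0% of all windows), with 3 higher. The level minus the rest of the chromosome gave 0 of 19 calls in each of the 3 contrasts, where 2 of 172 windows (1.16%), both lower and elsewhere, were called in post-PHx tumors, and 4, 1 and 1 proximal windows were higher at an unadjusted p under 0.05. The smallest p an exact permutation of signs can give with 6 tumors is 0.03125, so that test could not pass the adjustment unless most of the 172 windows reached it.

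Of the 19 proximal windows, that of chromosome 18 had the highest mean level in both groups. In post-PHx tumors it was 1.8 in PHx2F, 1.02 in PHx6F, 0.80 in PHx3M, 0.45 in PHx1M, 0.15 in PHx5M and 0.10 in PHx4M, against -0.14 in Spon5F, 0.30 in Spon6F, 0.18 in Spon1M, 0.28 in Spon2M, 0.50 in Spon3F and 0.31 in Spon4F. All post-PHx tumors and all spontaneous tumors but Spon5F stood above 0, and the groups overlapped. The mean against 0 was 0.72 ± 0.17 (SE) in post-PHx tumors (limma adjusted p = 0.175) and 0.24 ± 0.17 (SE) in spontaneous tumors (limma adjusted p = 0.568), and the groups differed by 0.48 ± 0.25 (SE, limma adjusted p = 0.728). With sex in the model the post-PHx mean of 0.81 passed (limma adjusted p = 0.0348).

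On chromosome 5, where the knocked-out Abcb4 itself lies, the post-PHx levels were 1.33 in PHx3M, 0.54 in PHx2F, 0.29 in PHx1M, 0.25 in PHx6F, -0.02 in PHx5M and -0.03 in PHx4M. The spontaneous levels were -0.06 in Spon5F, -0.02 in Spon6F, 0.31 in Spon1M, 0.13 in Spon2M, 0.04 in Spon3F and -0.14 in Spon4F. Thus 4 post-PHx tumors and Spon1M stood at 0.25 or more, and Spon2M was above 0 at a lower level. The mean of 0.39 ± 0.14 (SE) in post-PHx tumors did not pass (limma adjusted p = 0.726).

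On chromosome 8 the post-PHx levels were 0.84 in PHx3M, 0.37 in PHx4M, 0.36 in PHx1M, 0.16 in PHx2F, 0.07 in PHx6F and 0.03 in PHx5M. The spontaneous levels ran only from -0.07 (Spon2M) to 0.09 (Spon6F). The 4 tumors of slide 1 were above every spontaneous tumor, while PHx5M and PHx6F, on the slide shared with spontaneous tumors, were not. The difference between groups was 0.32 ± 0.11 (SE, limma adjusted p = 0.280), and the post-PHx mean of 0.31 ± 0.08 (SE) had an adjusted p of 0.175 by limma. With arrays weighted by their variance, the post-PHx means of chromosomes 8 and 18 passed (limma adjusted p = 0.0365 for both).

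The remaining windows past 0.4 were each high in a single tumor or in 2. Chromosome 4 reached 1.15 in PHx2F, where the other post-PHx tumors ran from -0.25 to 0.06 and the spontaneous ones from -0.37 (Spon2M) to 0.35 (Spon1M). Chromosome 1 stood at 0.48 in PHx3M, 0.29 in PHx1M and 0.33 in Spon2M, and at or below 0.01 in the other 9. Chromosome 3 stood at 0.49 in PHx3M and 0.22 in PHx1M, and the other 10 tumors at or below 0.00.

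Chromosome 10 was at 0.49 in PHx2F alone, with all others between -0.08 and 0.15. Chromosome 13 was at 0.58 in PHx3M and chromosome 15 at 0.42 in PHx2F and 0.45 in PHx4M, where the other post-PHx tumors lay within 0.04 of 0 on both. The spontaneous tumors ran from -0.27 (Spon1M) to 0.02 on chromosome 13 and from -0.06 to 0.19 on chromosome 15.

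In spontaneous tumors alone, chromosome 12 was at 0.52 in Spon1M, 0.35 in Spon4F and 0.27 in Spon2M, and chromosome 17 at 0.47 in Spon1M. Neither window exceeded 0.03 in any post-PHx tumor. Chromosome 14 went both ways, with 0.55 in Spon1M and -0.50 in Spon5F, and with 0.29 in PHx6F and 0.18 in PHx2F. The proximal window of chromosome 19, which was named after its values had been seen, was at 0.01 in Spon5F and between -0.39 (Spon2M) and -0.07 (Spon4F) in the other 5, with a mean of -0.16 ± 0.04 (SE, limma adjusted p = 0.0668). This level passed with limma when sex was in the model (adjusted p = 0.0189), with centring on the mode (adjusted p = 0.0192), in windows of 20 Mb (adjusted p = 0.0478) and without Spon5F (adjusted p = 0.0124), but not with slide in the model (adjusted p = 0.773). The remaining part of chromosome 19 was as low, since the proximal window exceeded it by 0.01 on average.

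Most high windows of post-PHx tumors ended soon after the window, while those of spontaneous tumors were of both kinds. In 13 of 14 post-PHx pairs the next window, from 15 to 30 Mb, was below 0.4, and the rest of the chromosome averaged between -0.14 and 0.08. The exception was chromosome 1 of PHx3M, with 0.55 in the next window. At 15 to 20 Mb, 5 of the 14 pairs were still at or above 0.4, and at 20 to 25 Mb only that of chromosome 1 of PHx3M. Of the 4 spontaneous pairs, the next window was at 0.58 on chromosome 12 and 0.44 on chromosome 14 of Spon1M, and at 0.04 and -0.12 on chromosome 17 of Spon1M and chromosome 18 of Spon3F. On chromosome 12 of Spon1M the rest of the chromosome averaged 0.34, and the loss of chromosome 14 in Spon5F likewise continued at -0.49 in the next window.

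The level was not constant across the 15 Mb. In stretches of 4 Mb, the mean post-PHx level over the 19 chromosomes was 0.16 from 3 to 7 Mb, 0.11 from 7 to 11 Mb, 0.06 from 11 to 15 Mb, 0.05 from 15 to 19 Mb and 0.01 from 19 to 23 Mb. The number of post-PHx pairs at or above 0.4 was 20 (17.5%) in the first stretch, 13 (11.4%) in the second, 9 (7.89%) in the third, 9 (7.89%) in the fourth and 3 (2.78%) in the fifth, where 2.48% of the pairs over all stretches of the autosomes reached it. In spontaneous tumors the counts were 6 (5.26%), 5 (4.39%) and 3 (2.63%) in the first 3 stretches, against 1.55% over all stretches. Across the bound at 15 Mb the post-PHx mean did not step, with 0.07 ± 0.08 (SD, n = 6) from 14 to 15 Mb and 0.07 ± 0.09 (SD, n = 6) from 15 to 16 Mb.

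**Figure D3:**
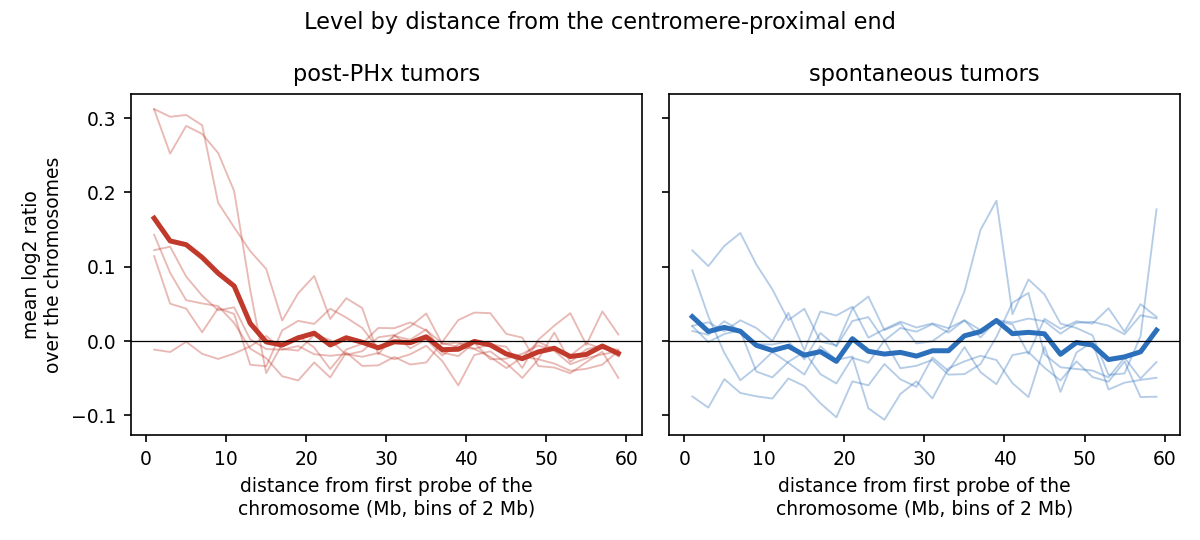
Mean log2 ratio over the chromosomes in bins of 2 Mb against the distance from the first probe of each chromosome, for single tumors (thin lines) and the mean of 6 tumors (thick line). The post-PHx mean starts at 0.17 in the first bin and is at 0.02 from 12 to 14 Mb, and the spontaneous mean starts at 0.03.

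A further 9 post-PHx pairs and 3 spontaneous pairs had a first stretch at or above 0.4 although the whole window stayed below it. They were named after their values had been seen. In post-PHx tumors they were chromosomes 1, 5 and 8 of PHx1M, 2 and 8 of PHx2F, 9 of PHx3M, 2 and 8 of PHx4M and 5 of PHx6F, at 0.40 to 0.67. In spontaneous tumors they were chromosomes 5 and 7 of Spon1M (0.42 and 0.44) and 18 of Spon6F (0.69).

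The gradient, the least-squares slope of the log2 ratio per 10 Mb away from the centromere, averaged, over the 19 windows, -0.21 in PHx3M, -0.13 in PHx1M, -0.10 in PHx4M, -0.10 in PHx6F, -0.09 in PHx2F and -0.01 in PHx5M. All 6 post-PHx tumors were below 0, and the mean was -0.11 ± 0.06 (SD, n = 6). The spontaneous tumors averaged 0.00 in Spon5F, -0.07 in Spon6F, 0.00 in Spon1M, 0.00 in Spon2M, -0.12 in Spon3F and -0.02 in Spon4F, with a mean of -0.03 ± 0.05 (SD, n = 6). Without chromosome 18 the spontaneous mean was 0.00 and the post-PHx mean -0.10. The mean gradient over post-PHx tumors was below 0 in 15 of 19 proximal windows (78.9%) and in 76 of 153 others (49.7%), and that over spontaneous tumors in 11 of 19 (57.9%) and 77 of 153 (50.3%).

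**Figure D4:**
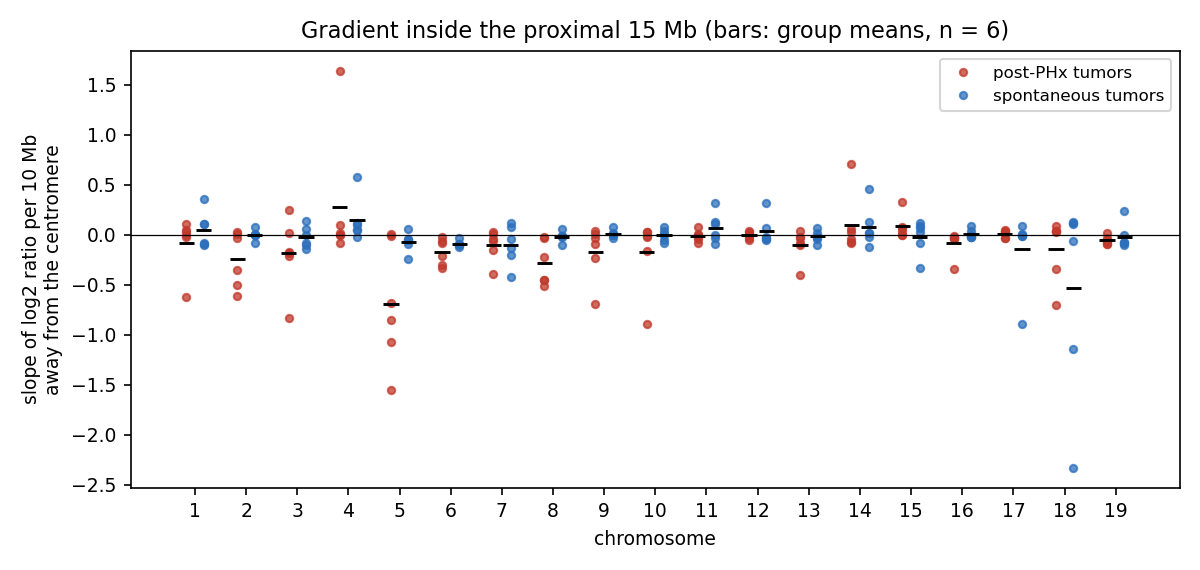
Slope of the log2 ratio per 10 Mb away from the centromere within the proximal window, for each chromosome and tumor, with bars at the group means (n = 6). On chromosome 5, 4 post-PHx tumors lie between -0.68 and -1.55, and the lowest slope of all is that of chromosome 18 in Spon3F at -2.33.

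Gradients of 3 proximal windows, of chromosomes 5, 6 and 8, fell below 0 in post-PHx tumors by limma, where 3.49% of all 172 windows were called lower and 1.74% higher. On chromosome 5 the slope was -1.55 in PHx3M, -1.08 in PHx2F, -0.85 in PHx6F, -0.68 in PHx1M, -0.01 in PHx4M and 0.00 in PHx5M, and the mean was -0.70 ± 0.17 (SE, limma adjusted p = 0.0334). The spontaneous slopes on chromosome 5 ran from -0.25 to 0.06. On chromosome 8 it was -0.51 in PHx4M, -0.45 in PHx2F, -0.45 in PHx3M, -0.22 in PHx1M, -0.04 in PHx5M and -0.02 in PHx6F, with a mean of -0.28 ± 0.06 (SE, limma adjusted p = 0.0255), and the spontaneous slopes ran from -0.10 to 0.06. The 4 steep slopes of chromosome 8 were again those of slide 1.

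Chromosome 6, named because its gradient passed, was different. Its slope was -0.33 in PHx1M, -0.30 in PHx6F, -0.22 in PHx4M, -0.08 in PHx2F, -0.06 in PHx3M and -0.02 in PHx5M (mean -0.17 ± 0.04 SE, limma adjusted p = 0.0255), but all 6 spontaneous tumors were also below 0, from -0.12 to -0.03, and the window level ran from -0.22 to 0.15 over the 12 tumors. In spontaneous tumors 0 of 19 gradients passed with limma (0% of all windows), with 1 lower at an unadjusted p under 0.05, and for post-PHx minus spontaneous 0 of 19 (0% of all windows), with 3 lower.

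The 3 gradient calls were not stable. With slide in the model none passed, and the adjusted p by limma was 0.562 for chromosome 5 and 0.273 for chromosomes 6 and 8. Within slide 2 the post-PHx slopes were -0.42, -0.16 and -0.03 on chromosomes 5, 6 and 8, and on background-corrected raw signals that of chromosome 6 was -0.08 and did not pass (limma adjusted p = 0.0903). In windows of 10 Mb chromosome 6 did not pass either (limma adjusted p = 0.181), while the slope of chromosome 19 passed in the other direction, at 0.09 in post-PHx tumors (limma adjusted p = 0.0406) and 0.14 in spontaneous tumors (limma adjusted p = 0.0109). Leaving out PHx1M, PHx2F or PHx3M removed all 3 calls (limma adjusted p up to 0.116), leaving out PHx4M removed those of chromosomes 6 and 8, PHx6F those of chromosomes 5 and 6, and Spon2M or Spon6F that of chromosome 5.

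The gained stretches had 3 shapes. Of the 14 high post-PHx windows, 7 declined away from the centromere by more than 2 standard errors of the slope, 5 were level within 2 standard errors and 2 increased. Where a window is given below as a left and a right part, the bound is the single step that described its probes best, which a search returns for a flat window too. This searched step described the probes better than the straight line in 13 of the 14 high post-PHx windows and in all 4 high spontaneous ones. That count does not decide between the 2 shapes, since a searched step has more freedom to fit than a line. On chromosome 15 of PHx2F, a window with no slope, the step accounted for only 1.49% of the variance of the probes. A slope below 0 need not be a gradual decline, as the stretches below that ended within a window show.

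Stretches that ended within the window were seen on several chromosomes. On chromosome 5 of PHx3M, 85 probes stood at 1.65 (3.15-fold) up to 9.7 Mb, and the probes from 12 Mb on at 0.12. On chromosome 10 of PHx2F, 116 probes up to 11.2 Mb stood at 0.70 (1.62-fold) and the 49 probes from 12.1 Mb on at 0.01. On chromosome 17 of Spon1M the level dropped from 0.80 to 0.06 at 8.9 Mb. On chromosome 18 of Spon3F, 39 probes up to 6.1 Mb stood at 2.44 (5.43-fold) and the rest of the window at -0.13, so that the window level of 0.50 described neither part.

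The highest stretch was also on chromosome 18. In PHx2F its first 11 probes, up to 4.3 Mb, stood at 3.65 (12.5-fold) and the other 142 probes of the window at 1.66 (3.16-fold). In PHx6F, PHx3M and PHx1M the window was flat, with slopes of 0.03, 0.03 and 0.09. The window of Spon6F stood at 0.68 up to 10.8 Mb and at -0.35 after it, a gain followed by a loss that averaged to 0.30.

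Not every high window was highest next to the centromere. On chromosome 4 of PHx2F, 39 probes up to 6.9 Mb stood at 0.25 (1.19-fold) and 78 probes from 8.0 Mb on at 1.59 (3.01-fold), with a slope of 1.64. Chromosome 4 of Spon1M had the same order at a lower level, 0.03 up to 9.4 Mb and 0.66 after it. On chromosome 15 of PHx4M the level was 0.30 before and 0.57 after 8.2 Mb. In PHx3M, chromosome 8 stayed gained across the whole window at 2 levels, 1.1 up to 6.2 Mb and 0.69 from 8.4 Mb on.

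**Figure D5:**
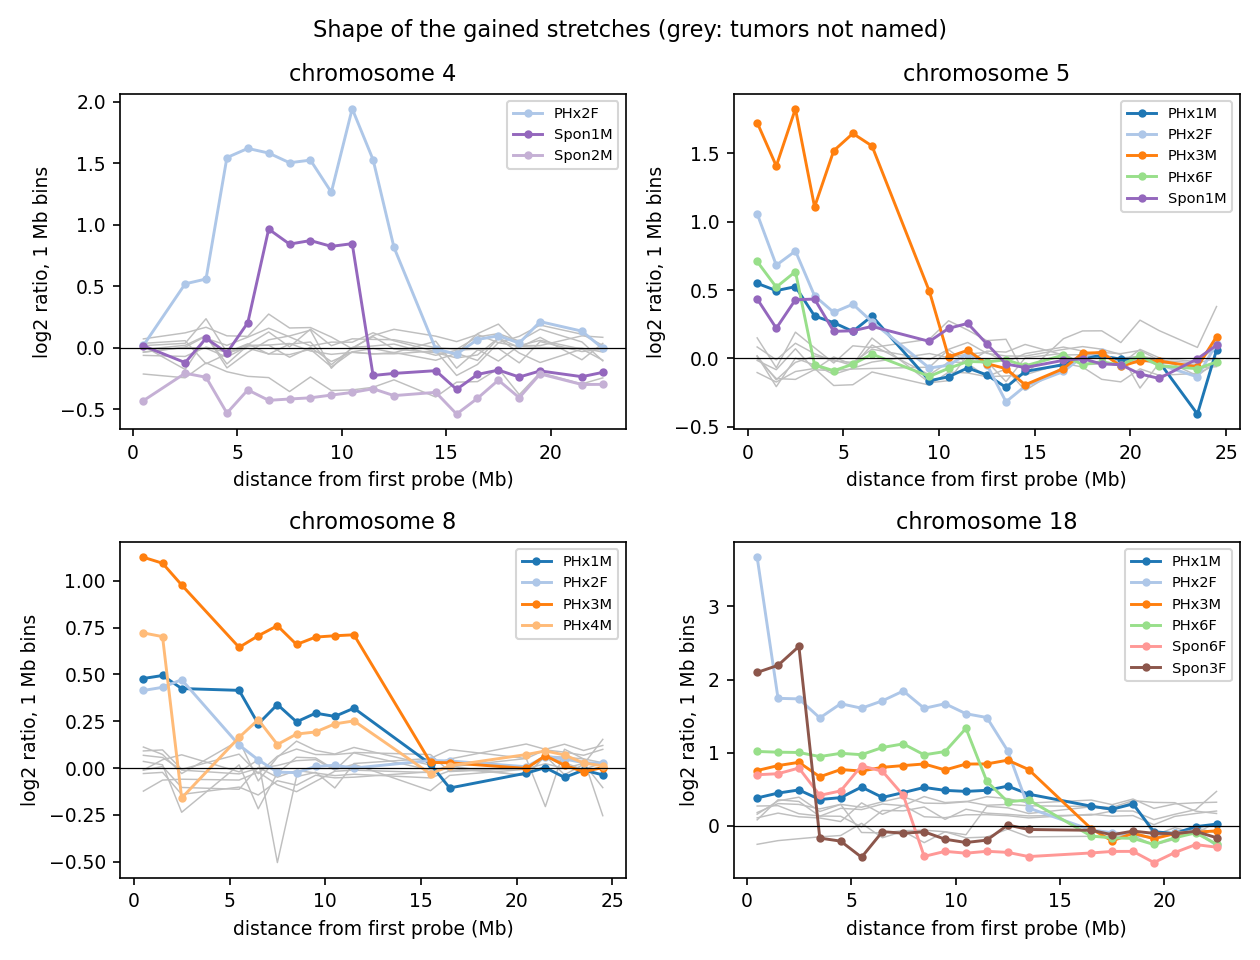
Log2 ratio in bins of 1 Mb against the distance from the first probe on chromosomes 4, 5, 8 and 18, with named tumors coloured and the others grey. The coloured tumors of chromosome 5 start high and are lower further along, not all by a gradual decline. Chromosome 4 of PHx2F starts near 0 and reaches above 1.5, chromosome 8 has steps within the gain, and chromosome 18 has an early peak in PHx2F and Spon3F.

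Genes of known roles were read from a list of 154 cancer, DNA repair and liver genes near the centromeres. In the files, 130 of them lay wholly in a proximal window and 104 had at least 2 probes. Of the 130, 62 reached a gene level (mean of the gene's probes) of 0.4 in at least 1 post-PHx tumor, 29 in at least 2, and 36 in at least 1 spontaneous tumor, while 26 stood at or below -0.4 in at least 1 tumor. Of all 19850 autosomal genes with at least 1 probe, 14.2%, 4.16%, 20.4% and 27.5% did so in that order, and of the 1560 genes wholly in a proximal window 39.6%, 15.9%, 25.1% and 28.7%, against 47.7%, 22.3%, 27.7% and 20% of the listed genes. The median of the gene means was 0.09 in post-PHx and 0.02 in spontaneous tumors.

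By class, at least 1 post-PHx tumor reached 0.4 in 35 of 58 growth signalling genes and oncogenes, 12 of 32 tumor suppressors and growth inhibitors, 11 of 32 liver metabolism and transport genes and 4 of 8 DNA repair and replication genes. For at least 1 spontaneous tumor the counts were 19, 12, 3 and 2. Over all genes of the windows the shares were the 39.6% and 25.1% given above, and no difference between classes was tested. Gene levels of 1 to 5 probes were noisier than window levels.

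Over all 10830 autosomal genes with at least 2 probes, limma called 1 of the 104 listed genes higher in post-PHx tumors (0.462% of all genes were called higher and 0.379% lower) and 2 lower in spontaneous tumors (1.72% of all genes), and 0 for the difference between groups (0% of all genes), where 10 were higher and 2 lower at an unadjusted p under 0.05. The 3 genes were named after their values had been seen. Elavl1 (chr8:4289073-4323012), which codes for the RNA-stabilizing protein HuR, was at 0.96 in PHx3M, 0.62 in PHx4M, 0.51 in PHx1M, 0.35 in PHx2F, 0.15 in PHx6F and 0.02 in PHx5M, and between -0.10 and 0.06 in spontaneous tumors. Its post-PHx mean was 0.43 ± 0.09 (SE, limma adjusted p = 0.0495), and 0.24 with slide in the model (limma adjusted p = 0.356). The spontaneous mean then moved from -0.02 to 0.17, and the difference between groups from 0.46 to 0.07. On slide 2 alone the means were 0.08 in post-PHx and 0.01 in spontaneous tumors.

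The other 2 genes were below 0 in all 12 tumors, and their mean in post-PHx tumors did not pass. Fads1 (chr19:10251967-10258874), a fatty acid desaturase, ran from -0.47 to -0.08 in spontaneous tumors (mean -0.26 ± 0.04 SE, limma adjusted p = 0.0239) and from -0.19 to -0.03 in post-PHx tumors (limma adjusted p = 0.289). Prkcq (chr2:11110139-11219089), protein kinase C theta of T cell signalling, ran from -0.35 to -0.09 in spontaneous tumors (mean -0.22 ± 0.05 SE, limma adjusted p = 0.0485) and from -0.35 to -0.01 in post-PHx tumors (limma adjusted p = 0.0955). With slide in the model neither passed (limma adjusted p = 0.272 for Fads1 and 0.345 for Prkcq).

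On chromosome 5, Abcb4 (chr5:8904729-8948922, 2 probes), the gene knocked out in all these mice, was at 1.67 (3.17-fold) in PHx3M and between -0.10 and 0.27 in the other 11 tumors. Its neighbour Abcb1a (chr5:8707926-8729030), a drug efflux pump, was at 1.65 in PHx3M and 0.46 in PHx2F. Akap9 (chr5:4010801-4048252), a scaffold for protein kinase A at the centrosome and Golgi, lay nearer to the centromere and was at 0.56 in PHx1M, 1.12 in PHx2F, 1.69 in PHx3M and 0.70 in PHx6F, and at 0.48 in Spon1M. Sema3e (chr5:14149850-14260985), a secreted guidance signal at the far end of the window, was between -0.25 and 0.15 in post-PHx tumors. Thus the number of post-PHx tumors at or above 0.4 was 4 at Akap9, 2 at Abcb1a, 1 at Abcb4 and 0 at Sema3e.

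Genes at the start of the chromosome 18 window were high in PHx2F and Spon3F, but of those named here PHx2F was highest at Crem and Spon3F at Zeb1. Crem (chr18:3267485-3287733), a transcription factor of the cAMP response, was at 3.91 in PHx2F, 1.95 in Spon3F, 0.89 in PHx3M, 0.88 in PHx6F and 0.67 in Spon6F. Its neighbours Cul2, a ubiquitin ligase scaffold, and Bambi, a decoy receptor of TGF-beta signalling with 1 probe, stood at 3.75 and 3.77 in PHx2F and at 1.93 and 2.09 in Spon3F. Map3k8, a kinase upstream of ERK, was at 2.56 in PHx2F and 2.27 in Spon3F, and Zeb1, a repressor of epithelial genes, at 1.87 in PHx2F and 3.08 in Spon3F.

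Further along the same window, Spon3F was no longer high. Ccny, a cyclin, was at -0.14 in Spon3F and 1.65 in PHx2F. Mib1, a ubiquitin ligase of Notch ligands with 1 probe, was at -0.21 in Spon3F and 1.73 in PHx2F. Gata6, a transcription factor of endoderm, was at -0.29 and 2.51, and Npc1, which moves cholesterol out of lysosomes, at -0.12 and 1.69. In PHx3M and PHx6F all 9 of these genes stood between 0.68 and 1.23.

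On chromosome 4, PHx2F was at 1.65 at the chromatin remodeller Chd7 and at 1.68 at the small GTPase Gem, which was also at 0.87 in Spon1M. On chromosome 15, Ghr, the growth hormone receptor, was at 0.46 in PHx2F and 0.26 in PHx4M, and Skp2, the F-box protein that targets p27 for degradation, at 0.39 and 0.62. Osmr, a receptor subunit of oncostatin M, was below 0.4 in all 12 tumors. Men1 on chromosome 19, which codes for the tumor suppressor menin, had a single probe, at -2.79 in Spon3F and between -0.38 and 0.54 in the other 11 tumors.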

How the data were processed

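Genomic DNA of 12 tumors and their matched livers was hybridized to Agilent 44K mouse CGH arrays. The authors deposited, per array, the output of Agilent Feature Extraction 10.5.1.1, which places probes on mm8: the log10 ratio of red over green, and the signal intensity of each channel before and after its background and dye correction. Their aberration calls were set aside.

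For the present description log10 ratios were converted to log2, after removal of control spots and of the 108 to 1218 outlier spots per array. Repeated spots were averaged by probe, and the median of the autosomal probes was subtracted from each array. Consecutive windows of 15 Mb with at least 20 probes (172, of which 19 were proximal) gave a mean, a mean minus the rest of the chromosome and a slope. Each was fitted with limma 3.58.1 in R 4.3.3 (group means, 3 contrasts, Benjamini-Hochberg at 0.05 over all windows, or over all genes with at least 2 probes), after a test on simulated data. Best single steps needed 5 probes on each side. Other steps used Python 3.11.15, numpy 2.4.6, pandas 2.3.3, scipy 1.17.1 and matplotlib 3.10.9. Precision is limited by the number of tumors and the noise of the probes, as arrays give no counts.

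The members, gene list and tests were chosen with earlier results of these data known. Text names windows at or beyond 0.4 in a tumor, Abcb4, up to 3 listed genes with most probes per window high in at least 2 tumors, and the 10 other listed genes with the highest absolute level. Gene names follow the files, and 1 gene that this rule names is not reported here. Alternatives were a model term for slide, sex or tumor number, array weights, other centring, normexp correction (offset 50), probes well above background, medians, windows of 10 or 20 Mb, thresholds of 0.25 and 0.6, the ends of a window compared in place of a slope, permutation tests, genes with 1 probe, fewer chromosomes, slide 2 alone and each tumor left out.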

Additional observations from a re-analysis of the deposited data

Results flagged for a closer look

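Each level of the 19 windows, the gradients of chromosomes 5, 6 and 8, and the averages over the windows were checked within each group of 6 tumors, 50 groups in all. A single tumor stood far from the other 5 in 8, where chance gives about 1 in 20. Of these, 4 levels lay in post-PHx tumors: PHx2F with 1.15 on chromosome 4 (nearest other tumor 0.06) and 0.49 on chromosome 10 (nearest 0.06), and PHx3M with 0.34 on chromosome 9 (nearest 0.04) and 0.58 on chromosome 13 (nearest 0.00). The other 3 levels lay in spontaneous tumors, Spon2M with 0.33 on chromosome 1 (nearest 0.01) and 0.29 on chromosome 16 (nearest 0.07), and Spon1M with 0.47 on chromosome 17 (nearest 0.03). The last was the gradient of chromosome 6 in Spon6F, at -0.0325 per 10 Mb, where the nearest other spontaneous tumor had -0.09.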

How the results depend on the processing

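The called gradients of chromosomes 5, 6 and 8 and the called means of Elavl1, Fads1 and Prkcq kept their direction. Some means near 0 did not. With slide in the model the spontaneous mean of Elavl1 moved from -0.02 to 0.17. The post-PHx level of chromosome 19 then moved from 0.01 to -0.03. The mean proximal level of the spontaneous tumors, 0.01, was -0.03 on slide 2. The slope of chromosome 19 also changed. It was not called in windows of 15 Mb (-0.05 in post-PHx and -0.02 in spontaneous tumors). In windows of 10 Mb it was called above 0. The averages over the 19 windows (levels, excess over the rest of the chromosome, gradients) moved by less than the SD between tumors under every alternative run. Counts of proximal windows called by level, 0 in each contrast, became 2 with array weights and 1 with sex in the model for post-PHx tumors, and 1 with sex, with centring on the mode or with windows of 20 Mb for spontaneous tumors. By level minus the rest of the chromosome, post-PHx calls became 1 with sex. The 3 gradient calls in post-PHx tumors became 0 with slide or a replicate block in the model, by exact permutation, which could not pass, or on slide 2 alone, and 1 with windows of 20 Mb, while spontaneous gradients gave 1 with windows of 10 Mb. In those windows the post-PHx count stayed at 3 with chromosome 19, called higher, in place of chromosome 6, and normexp correction lost chromosome 6. The replicate block used the tumor numbers, which mark different mice, so the samples share only a number: correlations of same-numbered tumors ran from -0.19 to 0.42 for levels and from -0.06 to 0.49 for gradients, and the adjusted p under the block by limma was 0.0710, 0.0710 and 0.0565 on chromosomes 5, 6 and 8. Listed genes called were 1 higher in post-PHx tumors and 2 lower in spontaneous ones. They became 0 and 0 with slide, the block or slide 2 alone, and 0 and 1 without centring. They became 21 and 12 after normexp correction. In post-PHx tumors they became 0 with probes well above background and 6 with single-probe genes, which also enlarged the set tested. The share of all genes called under these alternatives is not given here, so the counts cannot be read as particular to the listed genes. After normexp correction Prkcq passed in post-PHx tumors at an unadjusted p of 0.0013 (limma adjusted p = 0.018). Without that correction Elavl1 had a smaller unadjusted p of 0.00033 but an adjusted p of 0.0495 by limma. The 14 and 4 windows at or above 0.4 became 7 and 2 without chromosomes 5, 8, 14 and 18. At a threshold of 0.6 they became 6 and 0. At 0.25 they became 21 (18.4%) in post-PHx and 14 (12.3%) in spontaneous tumors, where 3.78% and 6.78% of the pairs over all windows reached it. With 1 tumor left out, the counts at 0.4 ran from 8 to 14 and from 1 to 4. Gradient calls then ran from 0 to 3, spontaneous level calls from 0 to 1, and listed genes called from 0 to 3 in each group. Slide 2 alone and the counts without chromosome 18 were added after seeing the data. The cause of these changes was not tested. With 6 tumors per group on 3 slides, of which only slide 2 held both groups, slide and group could be separated only in part.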
